A study of Mus musculus with 47 samples.

Results

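Dexamethasone was set against adrenaline in the tibialis anterior, a fast-fibred shin muscle, of adrenalectomized mice at ZT12, the hour of lights off. Of the 47 RNA-seq libraries of the series, 8 belong to this comparison: 4 from mice injected with dexamethasone and 4 from mice injected with adrenaline, taken by their labels. The labels number the libraries as separate samples and do not name the animals, so p-values measure the spread between libraries. The model takes that spread within all 12 groups of the series, so groups outside this comparison enter it. All 8 mice were wild-type C57BL/6 females fed ad libitum. They had lost both adrenal glands in 2 operations and drank saline with glucose to make up for lost aldosterone. One group received 5 mg/kg dexamethasone and the other 0.5 mg/kg adrenaline, given into the peritoneum at ZT12 for 10 days. The design text places the collection of muscle 2 weeks after treatment, so the time since the last dose is not certain from the labels. The dexamethasone mice were all 14 weeks old; of the adrenaline mice, 3 were 13 weeks old and 1 was 14. Both groups share surgery and injection, but no mice injected with vehicle alone are among the groups, so a difference between them may come from either hormone. Sham-operated and uninjected adrenalectomized mice at ZT12 (4 libraries each) and the same 2 hormones at ZT0 (8 libraries) are used below for reference. The sham mice were 10 to 12 weeks old, the uninjected adrenalectomized mice 13 to 17 weeks, and the ZT0 mice 11 to 14 weeks. All of these are labelled wild type. The fitted model also takes in sham and adrenalectomized mice of another genotype, labelled RE-RE, at both times.

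The adrenal cortex makes glucocorticoids and the medulla makes adrenaline, and removing the gland takes away both. Dexamethasone is a synthetic glucocorticoid that binds the glucocorticoid receptor, a transcription factor that enters the nucleus and acts at DNA response elements. Adrenaline acts at cell-surface receptors and raises cAMP, which leads to phosphorylation of CREB and to rapid induction of genes such as those of the Nr4a and Fos families. In muscle, glucocorticoids are known for driving protein breakdown and fat use and for restraining inflammation, and both hormones can reset clock genes.

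Values are FPKM, reads scaled to gene length and library size, read from deposited log2(FPKM + 0.01). Log2 changes are dexamethasone minus adrenaline ± SE on that scale, and a gene is said to have risen or fallen when the adjusted p from limma was under 0.05. Depth estimated from the step between low values was 19.3 to 29.7 M reads in the 8 libraries. It was set so that low values fell on whole reads, as all 123 of them did. In 1024 control genes only 9.1% to 10.7% of values were whole, where chance gives 10.0%. The depth, and the read numbers implied from it, are thus uncertain. The 13 myofibre markers read between 88.7 FPKM (Ttn) and 23094 FPKM (Acta1) over the 8 libraries, so the defining transcripts of skeletal muscle were present in all of them. Within a group, 14 to 34 non-zero values were exactly equal between 2 libraries, against 0 or 1 between libraries of different groups. In 25.8% of genes with an implied 10 to 1000 reads under adrenaline, and in 28.7% under dexamethasone, the spread over the 4 libraries was smaller than counting error alone. In the reference groups this share was 20.5% to 31.6%. The share that 4 independent libraries would give was not computed. The libraries of a group may not be independent, which was not tested, and the p-values below may be too small. Genes listed at 0 numbered 153 to 207 in the adrenaline libraries and 278 to 382 in the dexamethasone libraries, and a 0 is not read as absence of a transcript.

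Of 12000 genes tested, 5113 (42.6%) passed the test: 2549 (21.2%) were higher and 2564 (21.4%) lower after dexamethasone. The median change over all tested genes was -0.0001. A change of at least 2-fold was found in 710 genes (5.92%), and here falls outnumbered rises, 538 (4.48%) to 172 (1.43%). The groups did not overlap in 4313 genes (35.9%), and 3817 of these also passed the test. With so many genes past the test, counts in a list are read against these shares.

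Among genes with no value at 0, no overlap and a mean of at least 1 FPKM, Lcn2 and Pnmt had the largest rises. Lcn2 (ENSMUSG00000026822, chromosome 2, 32384633 to 32388252), a secreted carrier of iron-binding siderophores, read 1.57, 1.58, 1.56 and 1.6 FPKM in adrenaline replicates 5 to 8 and 91.0, 92.1, 90.8 and 84.7 FPKM in dexamethasone replicates 5 to 8. The ratio of the means was 56.9, and the log2 change was 5.82 ± 1.16 (adjusted p = 9.6e-05, limma). The adrenaline values imply about 100 reads, whose counting error is 9.99% of the mean, yet they varied by only 1.25% (coefficient of variation). In uninjected adrenalectomized mice Lcn2 was listed at 0 in all 4 libraries.

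Pnmt (chromosome 11, 98386450 to 98388181), the enzyme that turns noradrenaline into adrenaline, read 0.685, 0.725, 0.735 and 0.913 FPKM after adrenaline and 43.0, 39.0, 43.4 and 34.1 FPKM after dexamethasone. It rose by 5.69 ± 0.5 on the log2 scale (adjusted p = 1.03e-11), while sham muscle held 0.672 ± 0.281 FPKM (SD, n = 4). Every dexamethasone library thus lay above the adrenaline and sham libraries. Gnmt, glycine N-methyltransferase, rose from 0.584 to 0.735 FPKM to 18.8 to 20.7 FPKM, a log2 change of 4.87 ± 0.91. Depp1, a FOXO-induced regulator of autophagy, went from 1.48 to 1.76 FPKM up to 32.9 to 50.6 FPKM, a log2 change of 4.58 ± 1.38. The groups did not overlap in either gene.

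Ddit4, an inhibitor of the growth kinase complex mTORC1 also known as REDD1, read 3.70, 3.54, 5.56 and 3.74 FPKM after adrenaline and 64.2, 59.6, 68.5 and 64.9 FPKM after dexamethasone. It rose by 3.98 ± 1.26 (adjusted p = 0.0105). Adrenaline replicate 7 was the highest of its group, still well below every dexamethasone library. Sham muscle held 17.7 ± 8.86 FPKM, between the groups, and uninjected adrenalectomized muscle was listed at 0 in all 4 libraries.

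Among the 12 largest rises by the naming rule were also Slc2a3, a glucose transporter (log2 change 2.73 ± 0.59), and Adamtsl2, a secreted matrix-associated protein (2.72 ± 0.65). On log2(FPKM + 1) these changes were 1.44 and 1.28, since both genes lay below 1 FPKM after adrenaline. Mir133a-1, a muscle microRNA gene on chromosome 18, read 0.412, 0.971, 0.994 and 1.25 FPKM after adrenaline and 6.49, 22.0, 9.14 and 7.77 after dexamethasone. It rose by 3.56 ± 0.39, and by 2.56 on log2(FPKM + 1), as its adrenaline values were low. The number of reads behind those values was not computed. The sham mean of 14 ± 3.13 FPKM was nearer to the dexamethasone group, so the adrenaline libraries were the low ones. Cebpd (3.48), Odf3l2 (3.61), Orm1 (3.09) and Arrdc2 (2.93) also passed, at adjusted p of 0.0405 to 0.0488, but lost the call when single libraries were left out. This was so for any of the 8 libraries in Cebpd, Odf3l2 and Orm1 (adjusted p up to 0.0842, 0.0712 and 0.0815), and for all but adrenaline replicate 7 in Arrdc2 (up to 0.128). On log2(FPKM + 1) the change of Orm1 was 1.48. Cebpd is an inflammation-linked transcription factor. The Cebpd call was lost although its values of 6.89 to 8.63 and 85.8 to 94.6 FPKM were far apart. The model shares 1 spread per gene over all 12 groups, and in sham muscle Cebpd varied by 65.7% (coefficient of variation over 4 libraries). The part of sham or any other group in the lost call was not tested. On log2(FPKM + 1) the limma adjusted p of Cebpd was 3.44e-07. With only the 2 groups in the model the adjusted p of Cebpd was 2.07e-08.

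**Figure D1:**
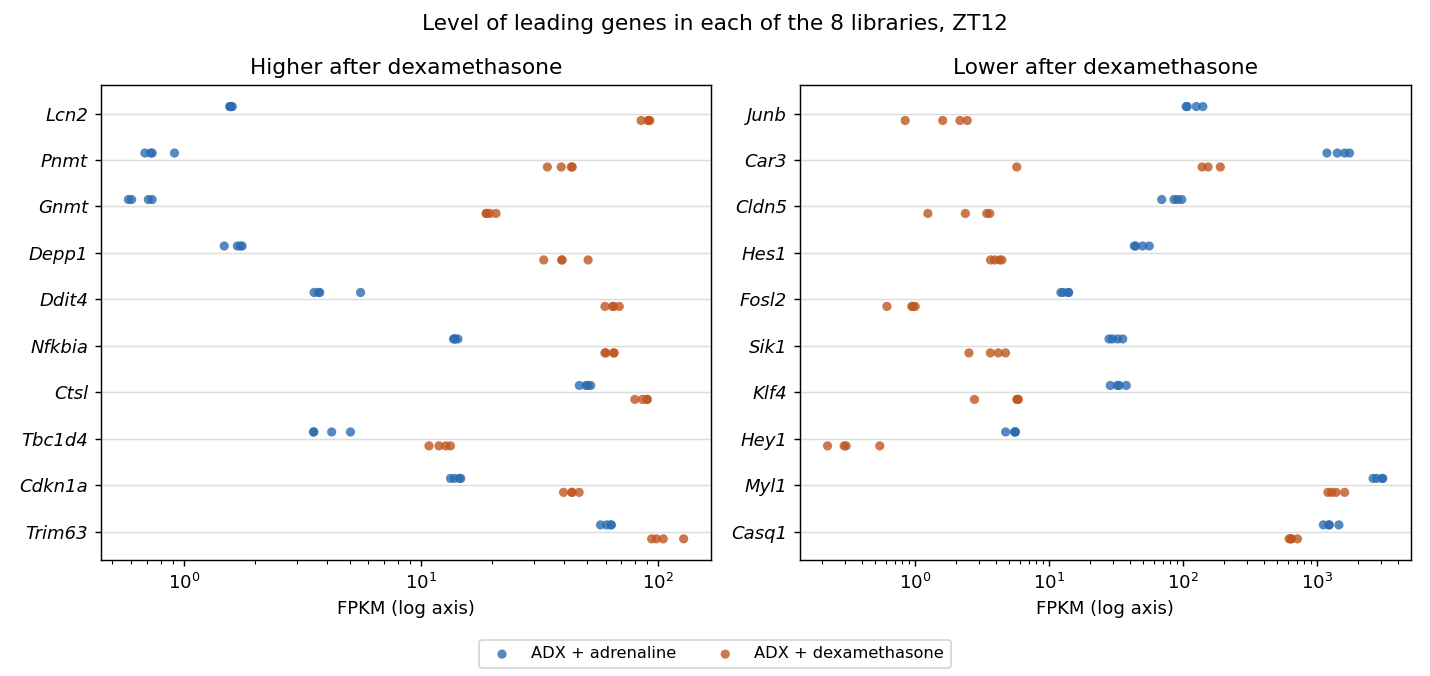
FPKM on a log axis of 10 genes that rose (left) and 10 that fell (right), 1 point per library, with adrenaline in blue and dexamethasone in orange. The groups do not overlap in any of these genes, and dexamethasone replicate 8 is the lowest point of Car3 at 5.71 FPKM.

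Among genes held to the same limits, the largest fall was that of Junb, part of the AP-1 transcription factor and quick to respond to cAMP. Junb (ENSMUSG00000052837, chromosome 8, 84974484 to 84978718) read 107, 125, 140 and 105 FPKM after adrenaline and 1.6, 2.44, 2.15 and 0.839 FPKM after dexamethasone. It fell by 6.17 on the log2 scale (SE 1.27, adjusted p = 0.000143), a 67.9-fold difference of the means. Sham libraries lay between 0 and 3.47 FPKM and uninjected adrenalectomized ones between 1.90 and 6.85, so it was the adrenaline libraries that stood apart.

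Car3, a muscle carbonic anhydrase and one of the abundant transcripts of fat and slow fibres, read 1600, 1740, 1180 and 1410 FPKM after adrenaline and 138, 189, 153 and 5.71 FPKM after dexamethasone. It fell by 4.41 (SE 0.57, adjusted p = 6.51e-08). Here the dexamethasone libraries stood apart, as sham muscle held 1410 ± 226 FPKM and adrenalectomized muscle 2030 ± 158. Replicate 8 was the lowest of the dexamethasone libraries by far. Car3 is also on the adipocyte marker list, of which 1 of 9 tested members rose and 1, Car3, fell. The summed level of that list was 1244 to 1797 FPKM after adrenaline and 57.3 to 269 after dexamethasone. It includes Car3, and almost all of the drop in the sum is that of this gene. The median log2 change of the list was 0.77.

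Hes1 and Hey1, transcriptional repressors induced by Notch signalling, both fell. Hes1 (chromosome 16, 30064384 to 30067796) read 44.1, 49.7, 55.7 and 43.1 FPKM after adrenaline and 4.24, 3.64, 4.42 and 3.91 FPKM after dexamethasone, a log2 change of -3.56 ± 0.15 (adjusted p = 7.76e-21). Hey1 went from 4.72 to 5.58 FPKM down to 0.221 to 0.542 FPKM, a log2 change of -4.01 ± 0.18 that was -2.24 on log2(FPKM + 1). Sham muscle held 5.60 ± 1.02 FPKM of Hes1 and 2.48 ± 0.523 FPKM of Hey1. Hes1 after dexamethasone lay below the sham range of 4.35 to 6.53 FPKM in 3 of 4 libraries, and Hey1 lay below its sham range of 1.78 to 3.01 FPKM.

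Other large falls included Fosl2, an AP-1 subunit (12.2 to 13.9 against 0.613 to 0.996 FPKM, log2 change -3.92 ± 0.29), and Uts2r, the receptor for urotensin II (7.15 to 10.3 against 0.471 to 0.669 FPKM, -3.91 ± 0.35). Tnfrsf10b, a receptor for the death ligand TRAIL, fell by 4.39, and Lrrc32, which displays latent TGF-beta on the cell surface, fell by 3.37. On log2(FPKM + 1) the fall of Tnfrsf10b was 2.04, as its highest dexamethasone value was 0.265 FPKM. The groups did not overlap in any of these 4 genes.

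In 19 genes all 4 dexamethasone libraries were listed at 0 while no adrenaline library was, and no gene showed the opposite. Nrep read 56.1, 59.8, 38.8 and 49.8 FPKM after adrenaline. Mybph, a myosin-binding protein of muscle, read 137, 152, 150 and 135 FPKM, and Gamt, which makes creatine, 10.2, 9.62, 4.96 and 9.86 FPKM. All 3 were also read in sham and uninjected adrenalectomized muscle at ZT12, where the means were 56 and 83.1 FPKM for Nrep, 153 and 195 for Mybph, and 7.7 and 14.1 for Gamt.

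Nrarp and Dll1, a feedback inhibitor and a ligand of Notch, were also among the 19, with 13.0 to 18.2 and 2.52 to 3.66 FPKM after adrenaline. Bcl6b, Sox18, Sox7 and Apln, known from blood vessel endothelium, held 13.3 to 23.6, 1.41 to 5.56, 0.668 to 5.25 and 0.427 to 6.38 FPKM. Adrenaline replicate 7 was the lowest library of its group in all 4.

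Genes known as targets of the glucocorticoid receptor were followed as a list of 35 tested members. Of these, 16 rose, 1 fell and 18 did not pass, against 21.2% and 21.4% of all genes, and their median log2 change was 0.54. Nfkbia, the inhibitor that holds NF-kB in the cytoplasm, read 13.9, 13.9, 14.3 and 13.7 FPKM after adrenaline and 64.8, 60.1, 65.2 and 59.6 after dexamethasone, a log2 change of 2.16 ± 0.17 (adjusted p = 5.45e-13). Errfi1, a brake on EGF receptor signalling, rose by 1.25 ± 0.24, Lpin1, a phosphatidate phosphatase, by 0.75 ± 0.11 and Klf9, a transcription factor, by 0.58 ± 0.09. Cdkn1a, the cell cycle inhibitor p21, was chosen after its values were seen and rose from 13.3 to 14.7 FPKM to 39.9 to 46.4 FPKM (1.62 ± 0.43).

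Several classic targets gave other results, and were picked out after their values were seen. Fkbp5, a co-chaperone that dampens the receptor, read 8.94, 8.99, 9.47 and 9.08 FPKM after adrenaline and 37.2, 36.7, 35.4 and 37.4 after dexamethasone. Its log2 change of 2.01 ± 0.94 missed the threshold (adjusted p = 0.0831). With only the 2 groups in the model the adjusted p was 6.61e-09. The sham libraries, which enter the spread only in the larger model, ranged from 0 to 6.81 FPKM, and their part in the missed call was not tested. Mt1 and Mt2, metallothioneins whose reads cannot be told apart with certainty, had log2 changes of 2.75 and 2.6 and likewise passed only in other models, at 5.15e-07 and 2.07e-08 with the 2 groups alone.

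In Tsc22d3, Glul and Zbtb16 (log2 change 0.28 ± 0.32) the groups overlapped. Tsc22d3, which encodes the anti-inflammatory protein GILZ, read 51.1 to 56.7 FPKM after adrenaline and 48.1 to 64.9 FPKM after dexamethasone, a log2 change of 0.05 ± 0.13 (adjusted p = 0.774). Glul, glutamine synthetase, read 73.8 to 91.7 and 77.7 to 86.6 FPKM (-0.01 ± 0.2, adjusted p = 0.975). Uninjected adrenalectomized muscle held 34.2 ± 8.95 FPKM of Glul, lower than any of the 8 libraries, and sham muscle 111 ± 16.3. A gene that neither rose nor fell between the 2 hormones can thus lie above the uninjected level in both.

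The adrenaline side was read from 23 tested genes of the cAMP and adrenergic response. Of these, 10 were lower after dexamethasone, 2 were higher and 11 did not pass, with a median log2 change of -1.02. Nr4a2, a nuclear receptor quickly induced by adrenergic stimulation, read 26.9, 29.5, 31.2 and 26.1 FPKM after adrenaline and was listed at 0 in all 4 dexamethasone libraries. Sik1, a kinase that shuts off CREB coactivators, read 27.9, 32.4, 35.3 and 29.6 against 3.63, 4.71, 4.16 and 2.51 FPKM, a log2 change of -3.09 ± 0.56 (adjusted p = 2.59e-05). Sham muscle held 3.62 ± 0.598 FPKM of Sik1, the level of the dexamethasone libraries.

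Crem, a cAMP-responsive regulator with an activating and a repressing form, fell by 1.43 (SE 0.12) and by 0.95 on log2(FPKM + 1). Id1, an inhibitor of basic helix-loop-helix factors, fell by 2.39 (SE 0.29). Nr4a1 and Nr4a3, chosen after their values were seen, fell by 1.39 (SE 0.31) and 2.62 (SE 0.6), Nr4a1 from 213 to 287 FPKM to 78.7 to 108 FPKM. Fos was chosen likewise: at 61.7, 76.4, 95.5 and 71.6 against 8.16, 18.2, 10.9 and 6.65 FPKM it did not overlap, yet its log2 change of -2.89 ± 1.54 had an adjusted p of 0.13, and of 0.000233 with the 2 groups alone. The 2 members that were higher after dexamethasone were Pfkfb3, a driver of glycolysis (1.53 ± 0.35), and Mstn, the muscle growth inhibitor myostatin (0.77 ± 0.26). Mstn lost its call without dexamethasone replicate 8, at an adjusted p of 0.0598.

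**Figure D2:**
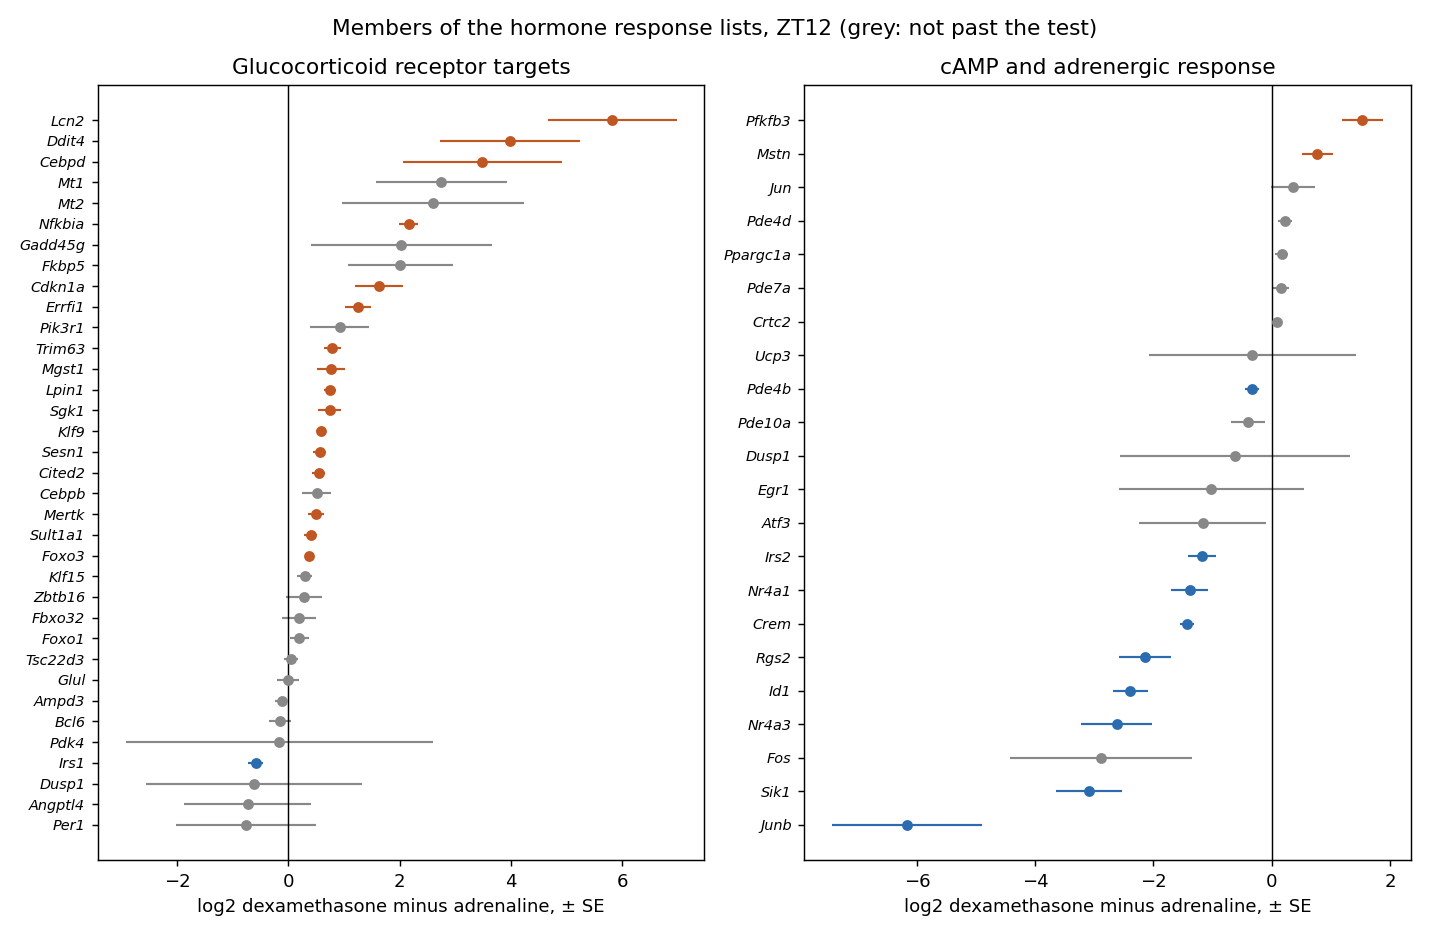
Log2 change, dexamethasone minus adrenaline, ± SE, of the tested members of 2 hormone response lists, with rises in orange, falls in blue and members not past the test in grey. Nr4a2 is left out because all 4 dexamethasone libraries were listed at 0. Points to the right of 0 are mostly in the glucocorticoid list and those to the left mostly in the cAMP list.

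Of 12 immediate early genes, which respond to many stimuli within minutes, 4 were lower and 1 was higher after dexamethasone (median log2 change -1.09). Over the alternative models 4 to 9 were lower. Besides Junb, the falls included Fosb, read at 5.04, 6.62, 10.3 and 11.7 against 0.774, 0.775, 0.768 and 0.355 FPKM (-3.63 ± 1.08), and Ier2 (-1.92 ± 0.25). Ier3 was the one that rose (0.78 ± 0.17).

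Promoters of 3 genes that fell, Junb, Fosb and Nr4a2, and of 2 that rose are shown because each holds a match to a response element of one of the hormones. In each, the 250 bases before the RefSeq start (build GRCm38.p6, 5′ to 3′ on the gene's strand) are given in lower case, with the match in capitals. In Junb (chr8:84978749-84978998, minus strand), Fosb (chr7:19310046-19310295, minus strand) and Nr4a2 (chr2:57124004-57124253, minus strand) the capitals mark TGACG, the core of the cAMP response element, or its reverse complement. In Errfi1 (chr4:150854820-150855069, plus strand) they mark the full element TGACGTCA, which contains this core on both strands. In Lpin1 (chr12:16610967-16611216, minus strand) they mark the reverse complement of AGAACA, one arm of the glucocorticoid response element.
Junb: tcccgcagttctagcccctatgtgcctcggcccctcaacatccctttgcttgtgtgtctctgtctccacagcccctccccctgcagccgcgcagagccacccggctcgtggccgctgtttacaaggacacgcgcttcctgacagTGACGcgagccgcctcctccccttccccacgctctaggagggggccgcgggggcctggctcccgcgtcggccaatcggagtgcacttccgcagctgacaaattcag
Fosb: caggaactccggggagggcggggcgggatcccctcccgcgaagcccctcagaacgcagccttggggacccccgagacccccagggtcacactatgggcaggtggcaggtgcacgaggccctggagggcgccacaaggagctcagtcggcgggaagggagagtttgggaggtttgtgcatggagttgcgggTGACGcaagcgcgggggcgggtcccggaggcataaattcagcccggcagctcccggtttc
Nr4a2: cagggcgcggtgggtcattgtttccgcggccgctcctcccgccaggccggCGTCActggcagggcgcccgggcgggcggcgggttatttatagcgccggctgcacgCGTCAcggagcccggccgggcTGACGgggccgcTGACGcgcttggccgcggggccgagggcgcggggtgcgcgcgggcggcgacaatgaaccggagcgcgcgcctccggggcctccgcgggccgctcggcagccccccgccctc
Errfi1: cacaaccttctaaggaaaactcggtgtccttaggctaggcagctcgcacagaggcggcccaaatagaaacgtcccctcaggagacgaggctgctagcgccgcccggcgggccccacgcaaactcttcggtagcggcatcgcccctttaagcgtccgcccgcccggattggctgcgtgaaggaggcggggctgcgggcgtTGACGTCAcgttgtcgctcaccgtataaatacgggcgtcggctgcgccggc
Lpin1: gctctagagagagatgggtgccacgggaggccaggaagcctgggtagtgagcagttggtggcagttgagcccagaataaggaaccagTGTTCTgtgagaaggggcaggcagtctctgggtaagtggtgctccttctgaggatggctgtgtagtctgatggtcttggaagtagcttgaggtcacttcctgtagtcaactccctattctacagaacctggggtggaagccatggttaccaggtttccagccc

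Searched on both strands from 250 bases before to 50 after the start, promoters were found for 8569 of the 12000 tested genes. TGACG was in 36.3% of all 8569, in 38.5% of genes that rose and in 32.8% of those that fell. Among genes that changed at least 2-fold the shares were 16.5% of 109 that rose and 26.5% of 370 that fell. AGAACA was in 14.4% of all, 14.4% of the genes that rose and 14.1% of those that fell, and in 19.3% of the 109 and 15.1% of the 370. The full palindromic glucocorticoid response element, AGAACA and its reverse complement 3 bases apart, was found in 1 gene. TGACGTCA was in 3.66% of all, 3.21% of the genes that rose and 3.83% of those that fell. A match describes these letters only, and Nr4a2, with 4 TGACG matches, and Errfi1, with a full site, moved in opposite directions.

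Nr3c1, the glucocorticoid receptor, was singled out after its values were seen. Nr3c1 read 14.3 to 18.6 FPKM after adrenaline and 13.0 to 18.1 after dexamethasone (-0.14 ± 0.11, adjusted p = 0.304). Of the 19 tested receptors, co-chaperones and signalling partners, 9 rose and 1 fell. Those that rose included H6pd, which supplies the cofactor for making active glucocorticoid (0.55 ± 0.09), Adcy2, an adenylyl cyclase (0.55 ± 0.09), and Fkbp4, a co-chaperone (0.21 ± 0.04). Arrb1, a beta-arrestin that uncouples adrenergic receptors, fell by 0.67 (SE 0.09).

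Some core clock genes passed the test. Of 19 tested clock genes 5 rose, none fell and 14 did not pass (median log2 change 0.19), against 21.2% and 21.4% of all genes. Over the alternatives 4 to 7 rose and 0 to 3 fell, so the count depended on the model. Nr1d1, the repressor REV-ERB alpha, read 39.7, 33.9, 32.7 and 32.1 against 64.2, 62.5, 56.7 and 60.6 FPKM (0.82 ± 0.17, adjusted p = 0.000219). The groups did not overlap, and Rora, a nuclear receptor that activates Arntl, rose as well (0.47 ± 0.08).

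Arntl, the clock activator BMAL1, read 5.66, 5.96, 6.19 and 6.29 FPKM after adrenaline and 5.45, 5.75, 5.02 and 5.10 FPKM after dexamethasone, a log2 change of -0.18 ± 0.81 (adjusted p = 0.89). With only the 2 groups in the model its adjusted p was 0.0481. Per1, Per2 and Per3, repressors of the clock, were chosen after their values were seen and did not pass. Per1, which is also a target of both hormones, read 27.0 to 37.4 FPKM after adrenaline and 17.7 to 19.1 FPKM after dexamethasone without overlap (-0.76 ± 1.26, adjusted p = 0.668, and 0.000506 with the 2 groups alone). Per2 and Per3 overlapped between the groups, with log2 changes of 0.25 and 0.13. Npas2, a paralogue of Clock, passed at 1.05 ± 0.29, but its values were 0.00491 to 0.0973 FPKM in all 8 libraries, and on log2(FPKM + 1) its change was 0.05 (adjusted p = 0.43).

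Genes of protein breakdown moved one way. Of 25 tested atrophy genes 14 rose, none fell and 11 did not pass, with a median log2 change of 0.34. Ctsl, the lysosomal protease cathepsin L, read 51.9, 49.6, 46.5 and 50.4 FPKM after adrenaline and 89.7, 89.9, 79.7 and 85.9 FPKM after dexamethasone (0.80 ± 0.07, adjusted p = 7.16e-12). Bnip3, which marks mitochondria for autophagy, rose by 0.70 ± 0.06, Eif4ebp1, a brake on translation, by 1.11 ± 0.12 and Foxo4, a FOXO factor, by 0.56 ± 0.06. The muscle ubiquitin ligases Trim63 (MuRF1) and Fbxo32 (atrogin-1) were picked out after their values were seen. Trim63 rose from 57.1 to 63.5 FPKM to 93.8 to 128 FPKM (0.79 ± 0.15, adjusted p = 6.72e-05). Fbxo32 overlapped, at 59.1 to 90.2 and 68.4 to 97.0 FPKM (0.19 ± 0.3), and sham muscle held 25.2 ± 7.82, below both groups.

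Fat use showed the largest share of rises of any metabolic list. Of 29 tested genes of fatty acid uptake and oxidation, 19 rose, 1 fell and 9 did not pass (median log2 change 0.31). Cd36, a fatty acid translocase, read 98.7, 95.9, 114 and 102 FPKM after adrenaline and 174, 165, 177 and 174 FPKM after dexamethasone (0.75 ± 0.11, adjusted p = 1.05e-06). Slc27a1, a fatty acid transport protein, rose by 0.86 ± 0.11, Acadl, a mitochondrial acyl-CoA dehydrogenase, by 0.61 ± 0.09 and Ppard, a lipid-sensing nuclear receptor, by 0.45 ± 0.07. The groups did not overlap in these 4 genes.

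Of 27 genes of lipid droplets and lipolysis 9 rose and 4 fell (median 0.35), with 7 to 15 rising over the alternatives. Pnpla2, the adipose triglyceride lipase, rose from 52.8 to 75.2 FPKM to 113 to 136 FPKM (1.02 ± 0.13), whereas Mgll, which cleaves monoglycerides, fell by 0.91 (SE 0.14). Sterol synthesis held 16 tested genes, 2 higher and 5 lower. Beside 21.2% higher and 21.4% lower over all genes, the counts of these lists are not read as a result about them.

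Sugar and insulin genes moved in both directions, as did all genes (21.2% higher and 21.4% lower), so the counts of these lists are not a result about them. In the insulin and IGF list 7 of 25 rose and 8 fell, and over the alternatives 6 to 13 rose. Tbc1d4, which controls glucose transporter traffic, read 5.04, 3.52, 4.20 and 3.53 FPKM after adrenaline and 13.3, 10.8, 11.9 and 12.7 after dexamethasone (1.59 ± 0.16, adjusted p = 4.6e-10). Akt2, the insulin-responsive kinase, rose by 0.39 ± 0.05, and Igfbp5, a binding protein of IGF, fell by 1.2 (SE 0.22). Of 33 glucose and glycogen genes 7 rose and 10 fell (median -0.06). Eno3, the muscle enolase, read 3570 to 4210 FPKM after adrenaline and 2490 to 2890 after dexamethasone (-0.58 ± 0.08), while Ppp1r1a, an inhibitor of protein phosphatase 1, rose by 1.12 ± 0.14. Gapdh is listed at 2.11 to 6.87 FPKM, far below Eno3, which is not read as its true level.

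Of 28 nuclear-encoded oxidative phosphorylation genes 1 rose and 3 fell, with a median of -0.04, and without adrenaline replicate 7 the counts were 4 and 3. Among ribosomal protein genes 13 of 35 were higher and 1 lower, with a median of 0.10, and Rpl8 rose by 0.21 ± 0.04. Without dexamethasone replicate 8 the count of rises was 5.

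Contractile genes moved in both directions. Among 29 fibre-type myosins, troponins and their partners 6 rose and 9 fell (median 0.12), with 3 to 7 and 5 to 10 over the alternatives. As 21.2% of all genes rose and 21.4% fell, these counts are not read as a result about the list. Myl1, an essential light chain of fast fibres, read 2770, 3060, 2610 and 3080 FPKM after adrenaline and 1380, 1600, 1200 and 1280 FPKM after dexamethasone (-1.08 ± 0.08, adjusted p = 3.98e-14). Tpm1, a tropomyosin, fell by 0.98 (SE 0.08), and Casq1, the calcium buffer of the sarcoplasmic reticulum, by 0.94 (SE 0.09). Actn3, the fast-fibre alpha-actinin, went the other way, from 2490 to 3050 FPKM to 4330 to 4860 FPKM (0.79 ± 0.09). Sham and adrenalectomized means of Myl1 were 2820 and 3050 FPKM, so it was the dexamethasone libraries that were low.

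Myogenic and growth factors also moved both ways, 6 higher and 8 lower of 25, with 4 to 8 lower over the alternatives. Beside 21.2% and 21.4% of all genes, these counts are likewise not read as a result. Bmp4, a growth factor, rose by 1.00 ± 0.15, and Tgfb1, transforming growth factor beta-1, read 4.80, 3.63, 2.74 and 3.44 against 2.05, 1.22, 1.00 and 0.976 FPKM (-1.51 ± 0.16, adjusted p = 1.48e-09). Myog, the differentiation factor myogenin, read 5.05, 4.36, 3.29 and 2.45 FPKM after adrenaline and 0.188, 0.523, 0 and 1.21 FPKM after dexamethasone.

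Inflammatory mediators that glucocorticoids are known to restrain were lower in 11 of 20 tested genes and higher in 2 (median -0.51). The 2 were Nfkbia and Il1r1, an interleukin-1 receptor (0.45 ± 0.12). The list also holds genes known to restrain inflammation: of these Anxa1 (-0.70 ± 0.25), Tnfaip3 (-0.70 ± 0.23) and Socs3, which has 2 values at 0, fell, and Tsc22d3, Dusp1 and Zfp36 did not pass. Il1r1, Anxa1, Tnfaip3 and Socs3 were chosen after their values were seen. Stat3, a transcription factor of cytokine signalling, read 6.54, 7.15, 6.57 and 6.57 against 4.64, 4.19, 4.43 and 4.28 FPKM (-0.61 ± 0.05, adjusted p = 4.63e-12). Nfkb2, an NF-kB subunit, fell by 0.91 (SE 0.11). Of 34 interferon response and MHC class I genes 17 were lower and none higher (median -0.81). B2m, the light chain of MHC class I, was chosen after its values were seen and read 151, 184, 84.2 and 143 against 69.3, 81.5, 82.0 and 73.2 FPKM (-0.83 ± 0.26, adjusted p = 0.00887). Adrenaline replicate 7 was the lowest of its group in B2m, and over the alternatives 6 to 22 of the 34 genes fell.

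Among the pathway lists, matrix genes had the largest share of falls: 23 of 32 tested members were lower and 2 higher, with a median log2 change of -1.87. One of the 2 was Lox, a collagen cross-linking enzyme chosen after its values were seen, which was listed at 0 in 3 of the 4 adrenaline libraries and in none after dexamethasone. Of these 32, 11 had a value listed at 0, and over the alternatives 14 to 24 fell. Among members with no such value, Nid1, a basement membrane linker, read 12.2, 11.5, 8.79 and 13.3 against 6.80, 5.11, 5.66 and 4.75 FPKM (-1.03 ± 0.11, adjusted p = 2.99e-09), and Lamb1, a laminin chain, fell by 1.74 (SE 0.19) and by 0.97 on log2(FPKM + 1). Col3a1, a fibrillar collagen, read 36.3, 5.72, 8.60 and 25.9 FPKM after adrenaline and was listed at 0 in all 4 dexamethasone libraries. Col15a1, of the vessel basement membrane, read 9.62, 7.52, 0.157 and 4.91 FPKM after adrenaline and was likewise at 0. The adrenaline libraries varied widely in the collagens, and adrenaline replicate 7 was lowest in Col15a1.

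Markers of other cell types were counted next, since in bulk RNA fewer cells of a type and less RNA per cell cannot be told apart. Endothelial markers were lower in 8 of 13 and higher in 1 (median -0.37), with 5 to 9 lower over the alternatives, and their summed level was 197 to 285 FPKM after adrenaline and 114 to 139 after dexamethasone. Cldn5, a tight junction protein, read 97.4, 90.5, 69.0 and 85.3 against 3.59, 3.41, 2.36 and 1.24 FPKM (-5.11 ± 0.93, adjusted p = 2.8e-05). The summed level includes Cldn5, and much of the drop in the sum is that of this gene. Egfl7, a secreted vessel protein, fell by 2.01 (SE 0.12). Smaller falls were those of Esam, an adhesion molecule (-0.43 ± 0.09), and Vwf, von Willebrand factor (-0.54 ± 0.11). Cdh5, Flt1 and Kdr, chosen after their values were seen, had log2 changes of -0.37 ± 0.11, 0.29 ± 0.1 and 0.03 ± 0.13. With the 2 groups alone the adjusted p of Cdh5 was 0.147. Leaving out adrenaline replicate 5 ended the call of Cdh5 (adjusted p = 0.0581), and leaving out adrenaline replicate 6 that of Flt1 (0.0509).

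Macrophage and monocyte markers were lower in 8 of 12 and higher in none (median -1.2), and their sum was 47.7 to 86.8 FPKM after adrenaline and 19.7 to 26.4 after dexamethasone. Cd74, the MHC class II chaperone, read 38.8, 40.7, 30.8 and 60.5 against 14.4, 17.2, 13.9 and 10.7 FPKM (-1.58 ± 0.26, adjusted p = 5e-06). The sum of this list includes Cd74, which makes up much of the drop in it. Mrc1, the mannose receptor, fell by 1.24 (SE 0.26) and by 0.59 on log2(FPKM + 1). These markers moved with the inflammatory and MHC genes, and their part in those results was not tested.

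Fibroblast markers were lower in 8 of 13 and higher in none (median -0.52), with 5 to 8 lower over the alternatives. Their summed level overlapped, 312 to 485 FPKM after adrenaline and 335 to 430 after dexamethasone. Dpt, dermatopontin, fell by 0.96 (SE 0.17). Dcn and Pdgfra, a proteoglycan and a receptor that mark these cells, were singled out after their values were seen: Dcn read 86.5 to 121 FPKM against 102 to 130 (0.09 ± 0.15) and Pdgfra 1.17 to 1.54 against 1.34 to 1.85 (0.21 ± 0.17). Dcn and Pdgfra thus did not move with the collagens of the list. Dpt fell, as did Smoc2, another of its markers (-0.41, limma adjusted p = 0.000857).

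Smooth muscle and pericyte markers went up in 5 of 11 and down in none (median 0.28), and 3 to 7 rose over the alternatives. Myh11, smooth muscle myosin, read 5.46 to 5.52 against 8.05 to 11.1 FPKM (0.77 ± 0.14). Schwann cell markers rose in 4 of 8 and fell in none, with Mbp, myelin basic protein, at 0.77 ± 0.19. Satellite cell markers split, 3 up and 4 down of 7, or 3 up and 2 down without dexamethasone replicate 8. Slow-fibre genes, a sign of neighbouring muscle, rose in 3 of 9 (1 without adrenaline replicate 7) and fell in none, and their sum was 106 to 140 FPKM after adrenaline and 114 to 183 after dexamethasone. Of 10 neutrophil markers only Mmp9 was in the table, and it was listed at 0 in all 8 libraries, so a neutrophil source of Lcn2 was not tested. Myofibre markers split evenly, 4 up and 4 down of 13, with 1 to 4 down over the alternatives. Over all genes 21.2% rose and 21.4% fell. The counts of satellite cell, slow-fibre and myofibre markers are not read as results about them.

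**Figure D3:**
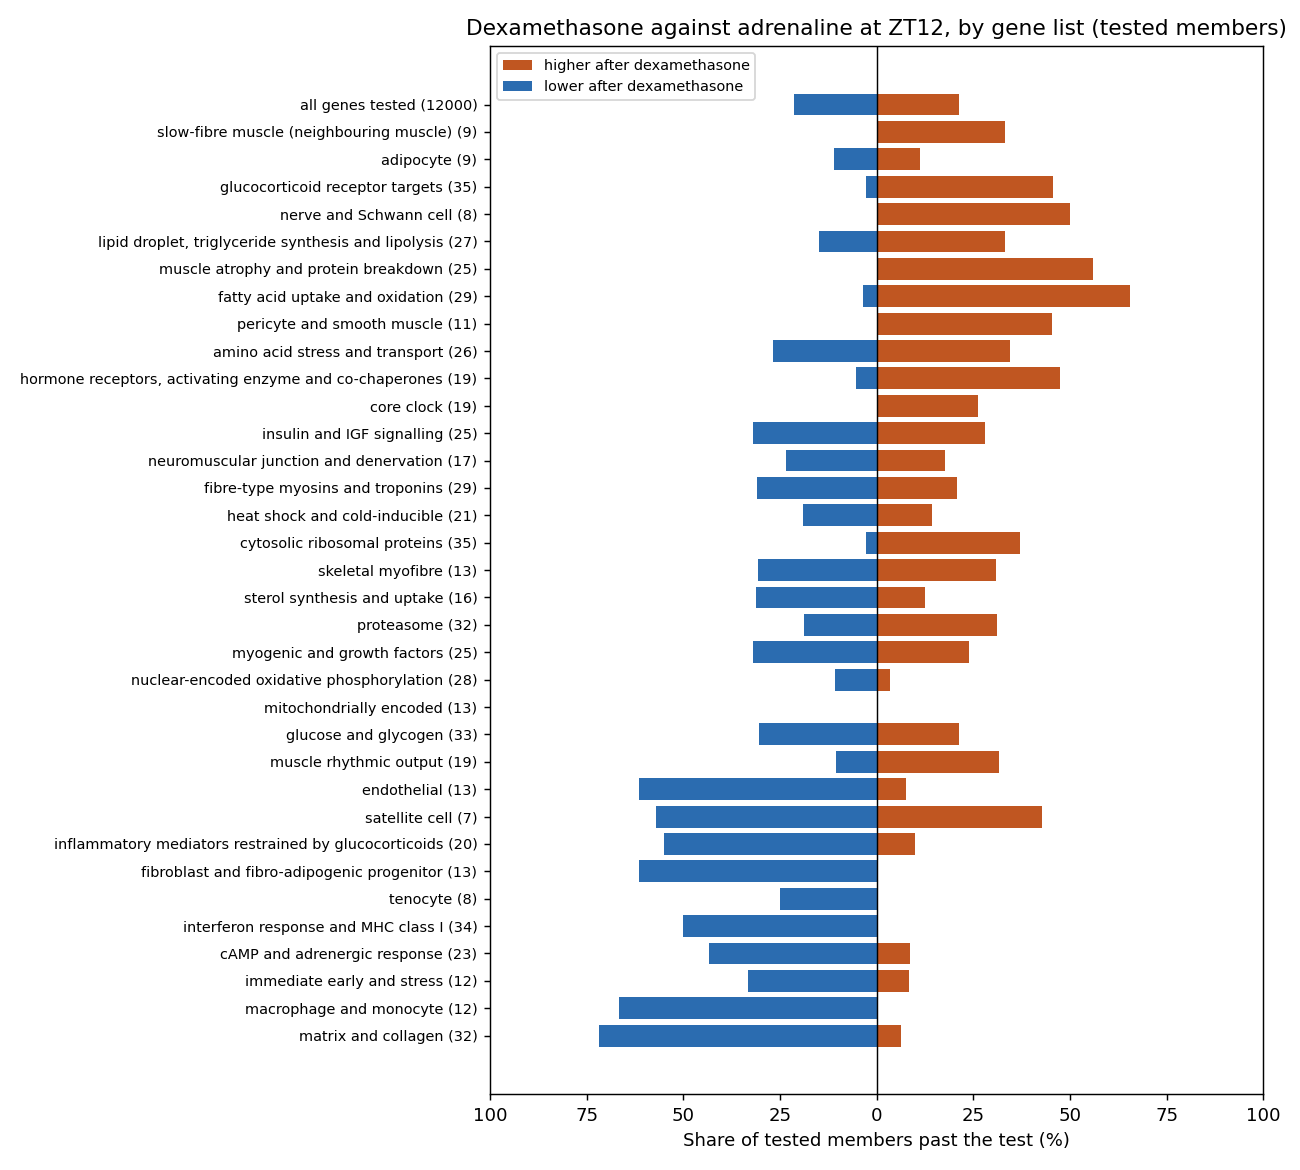
Share of tested members of each gene list that were higher (orange, right) or lower (blue, left) after dexamethasone, for lists of at least 7 tested members ordered by median log2 change and all 12000 tested genes at the top. The matrix list reaches furthest to the left, with 23 of 32 members, and fatty acid uptake and oxidation furthest to the right, with 19 of 29.

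The same 2 hormones were compared at ZT0, where 5835 genes (48.6%) passed the test, 3011 (25.1%) higher and 2824 (23.5%) lower. Of these, 3472 passed at both times, which is 67.9% of the ZT12 calls and 59.5% of the ZT0 calls; 3363 of them had the same direction and 109 the opposite one. The ZT0 libraries come from other mice. The test of the difference between the 2 times called 1631 genes (13.6%), 912 (7.6%) with a higher value at ZT12 and 719 (5.99%) with a lower one, and 962 of these were also called at ZT12.

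Nr1d1 was among the genes of opposite direction. At ZT0 it read 42.1 to 48.2 FPKM after adrenaline and 20.3 to 21.1 after dexamethasone (-1.14 ± 0.17), so its hormone difference at ZT12 exceeded that at ZT0 by 1.96 ± 0.25 (adjusted p = 6.81e-07). Glul, with no difference at ZT12, read 49.6 to 59.6 and 131 to 193 FPKM at ZT0 (1.61 ± 0.2), and the difference between times was -1.62 ± 0.29 (adjusted p = 0.000148). Foxo1, a FOXO factor chosen after its values were seen, had changes of 0.19 ± 0.17 at ZT12, where the groups did not overlap, and 1.33 ± 0.17 at ZT0.

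Nfkbia differed more at ZT12: at ZT0 it read 7.83 to 11.6 FPKM after adrenaline and 14.6 to 18.7 after dexamethasone (0.88 ± 0.17), and the difference between times was 1.28 ± 0.24 (adjusted p = 0.000254). Hey1 fell by 0.82 (SE 0.18) at ZT0, and the difference between times was -3.19 ± 0.25 (adjusted p = 3.86e-12). Egfl7 fell by 0.42 (SE 0.12) at ZT0, and the difference between times was -1.59 ± 0.16. Id1 had 12.5 to 20.8 and 11.5 to 19.3 FPKM at ZT0, with no fall there (-0.09 ± 0.29). Lcn2, Pnmt and Gnmt had ZT0 changes of 5.03, 5.46 and 4.72, and their differences between times did not pass (adjusted p = 0.809, 0.876 and 0.956).

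**Figure D4:**
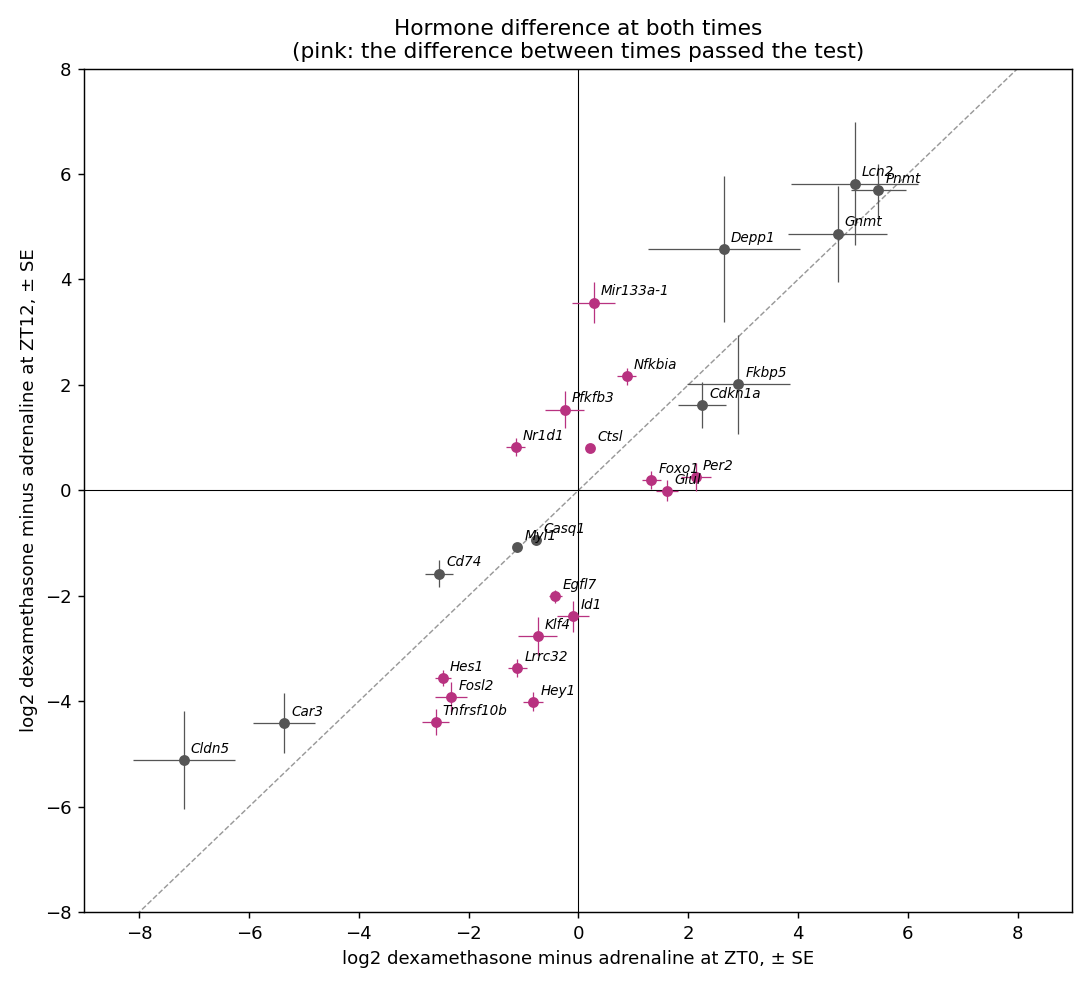
Log2 change, dexamethasone minus adrenaline, ± SE, at ZT0 (x) and ZT12 (y) for 27 genes, with the dashed line where both are equal and genes whose difference between times passed the test in pink. Lcn2, Pnmt and Gnmt lie near the line, and Nr1d1 lies above 0 at ZT12 and below 0 at ZT0. Ddit4, Per3, Junb and Sik1 are left out because a group is listed at 0 at ZT0.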

How the data were processed

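RNA-seq of whole tibialis anterior gave 1 table of 13500 genes in 47 libraries. The submitters' processing notes name HISAT2 2.1.0 and build GRCm38, featureCounts 1.6.2, edgeR 3.30.0, Trim Galore 0.5.0 and FastQC 0.11.8. Whether reads were counted by strand is not given in the sources used here. The authors deposited log2 values, which the values show to be log2(FPKM + 0.01), and FPKM was recovered from them. Depth was estimated from the steps between low values. Symbols came from GENCODE M21 (13446 IDs matched, 54 did not), promoters from RefSeq, GRCm38.p6.

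Genes of at least 1 FPKM in at least 3 libraries (12000) were fitted on the deposited scale with limma 3.58.1 in R 4.3.3. The model had 1 term for each of 12 groups over all 47 libraries, so that every gene has 1 spread for all groups. These groups include the RE-RE mice. P-values were two-sided and Benjamini-Hochberg adjusted over all 12000 genes, with a threshold of 0.05. Named genes were the 12 largest rises and 12 largest falls without overlap or a value at 0 and with a mean of at least 1 FPKM, the 6 smallest adjusted p, up to 4 of each list by adjusted p, Arntl, and genes listed at 0 in 1 group alone; other genes are said to be chosen after their values were seen. The members and lists were chosen with earlier results of these data known. Alternatives were log2(FPKM + 1), no filter, equal library medians, a term for age, a block for the replicate number, fewer groups, genes with no value at 0, and each library left out. In data simulated with the real genes, the noise was independent, normal and of equal spread in all groups. There, 91% of 100 genes changed by a log2 of 1 and 95% of 100 changed by a log2 of 2 were recovered, with 7 unchanged genes called. As the real libraries may not be independent, this does not give the error rate in these data. Tables and figures used Python 3.11.15, numpy 2.4.6, pandas 2.3.3 and matplotlib 3.10.9. A few genes of the lists are counted but not reported by name here.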

Additional observations from a re-analysis of the deposited data

Results flagged for a closer look

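In 9 of 212 groups of 4 libraries 1 library stood far from the other 3, by a test that chance meets in about 1 in 20 groups. Adrenaline replicate 7 was this library for Hey1 (4.72 FPKM), Ddit4 (5.56), Gamt (4.96) and Per3 (4.37). Dexamethasone replicate 8 was it for Fosl2 (0.613 FPKM) and Fosb (0.355). In Stat3 it was adrenaline replicate 6 (7.15 FPKM), and in Nfkb2 replicate 5 of both groups (6.13 after adrenaline and 3.12 after dexamethasone).

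In 38 of 112 genes the hormone difference at ZT12 differed from that at ZT0 by limma's test of that difference, which 13.6% of all genes passed. Many of the 112 were chosen for their change at ZT12 or after their values were seen, so their share cannot be compared with that of all genes. Values are the log2 difference at ZT12 minus that at ZT0. Among regulators of transcription it was -3.19 for Hey1, -1.09 for Hes1, -1.59 for Fosl2, -2.30 for Id1, -0.49 for Crem, -1.15 for Ier2, -0.30 for Stat3, -1.15 for Foxo1 and -0.38 for Ppard. In clock genes it was 1.96 for Nr1d1, 1.84 for Npas2 and -1.89 for Per2. For signalling genes it was 1.28 for Nfkbia, 0.40 for Arrb1, 0.83 for Bmp4, -1.79 for Tnfrsf10b, -2.08 for Uts2r, -2.26 for Lrrc32, -1.59 for Egfl7 and -0.49 for Flt1. For enzymes it was 0.59 for Ctsl, -1.07 for Gapdh, 0.64 for Mgll, -1.62 for Glul and 1.78 for Pfkfb3, and it was 3.28 for Mir133a-1. In 12 further genes a library is listed at 0 at one of the times, so the size of the fitted value depends on the offset: -6.01 for Ddit4, -10.35 for Mybph, -1.04 for Bcl6b, -3.72 for Nr4a2, 5.40 for Sik1, -4.48 for Myog, 1.57 for Col3a1, -4.20 for Sox7, -4.52 for Dll1, -7.79 for Nrarp, -8.27 for Sox18 and 6.98 for Per3.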

How the results depend on the processing

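The number of genes past the test at ZT12 was 5113, and 4486 to 5053 with 1 library left out. At ZT0 it was 5835, and 5344 to 5684. For the difference between times it was 1631, and 1261 to 1709. Under every other setting run these counts also stayed within 1.5 times the reported ones. With only the 4 groups of the contrast in the model, 1504 genes differed between times, and 44.1% of them were higher, against 55.9% in the reported model. Leaving out genes with an exact value shared within a group, a setting chosen after seeing the data, gave 5116 genes at ZT12.

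Fitted with the replicate number as a block and only the groups of the contrast, the counts were 3829 at ZT12, 4838 at ZT0 and 1304 between times. Same-numbered libraries of the 2 ZT12 groups had correlations of 0.13, 0.097, 0.046 and -0.068, so the numbers are not taken to pair the samples.

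Of 201 genes examined, 175 passed the test at ZT12, and 148 of these passed in every setting run for them. Of the 26 that did not pass, 13 passed in at least 1 setting, and no called change had the opposite sign. Genes below about 1 FPKM have smaller changes on log2(FPKM + 1), and a value listed at 0 gives no fold.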

Other observations

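Genes of amino acid stress and transport, a list of 26 tested genes, moved both ways after dexamethasone: 9 rose and 7 fell, with a median log2 change of 0.20. Of 32 proteasome subunits 10 rose and 6 fell (median 0.01). Of 17 genes of the neuromuscular junction and denervation 3 rose and 4 fell, and without dexamethasone replicate 8 none rose and 4 fell. Of 21 heat shock and cold-inducible genes 3 rose and 4 fell, with 2 to 8 rising over the alternatives. Of 19 genes of rhythmic muscle output 6 rose and 2 fell, with 1 to 6 falling over the alternatives. Over all tested genes 21.2% rose and 21.4% fell, and the counts of these lists are not read as results about them.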
